A study of Homo sapiens with 6 samples.

Results

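DDX5 and DDX17 are a pair of paralogous genes that encode DEAD-box RNA helicases, and their transcripts were followed in Rh30 cells with and without knockdown of DDX5. Rh30 is an established cell line of alveolar rhabdomyosarcoma, a childhood tumour with features of skeletal muscle precursors, and it carries the PAX3-FOXO1 fusion gene. The members are all transcripts that GENCODE release 29 assigns to either gene, which gave 2 of 35580 genes and 47 of 188753 transcripts in the tables, 35 of DDX5 and 12 of DDX17. The control group held 3 libraries labelled CTR and the siDDX5 group 3 libraries from cells after DDX5 knockdown, with replicates 1 to 3 of each described as biological. All 6 libraries came from this 1 fusion-positive line and were made with a stranded messenger RNA kit. The siRNA sequences, what the control cells received and the time after knockdown are not given in the sources used here, so which of the transcripts the siRNA can match was not tested. The design asks what changed when DDX5 was lowered, and for this gene pair that covers the targeted gene itself, its closest relative, and the forms of each transcript.

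DEAD-box helicases bind RNA and use ATP to open short duplexes or to remodel complexes of RNA and protein. DDX5 (p68) and DDX17 (p72) are known as partners of the Drosha complex that cuts primary microRNAs, as splicing regulators and as coregulators of transcription factors, MyoD among them in muscle cells. Both proteins can form dimers with each other, and many of their functions overlap. Genes for RNA-binding proteins often give rise to transcripts that keep an intron or carry an early stop codon, and such transcripts can be held in the nucleus or destroyed by nonsense-mediated decay (NMD).

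DDX5 (ENSG00000108654.14) lies on the minus strand of chromosome 17 from 64499616 to 64508199, and DDX17 (ENSG00000100201.20) on the minus strand of chromosome 22 from 38483440 to 38507660 (GRCh38). The longest coding models, DDX5-201 and DDX17-202, have 13 exons each, and 8 consecutive exons, 4 to 11, have the same length in both genes. Identity of these exons ran from 68.7% in exon 4 to 80.6% in exon 10, and over 1813 aligned bases the coding sequences were 70.8% identical. The coding sequence spans 1842 bases in DDX5 and 2193 in DDX17. The stretch of exon 7 that encodes the DEAD motif, which gives the family its name, shows how close the paralogs are. It is printed here from the GENCODE 29 transcripts, 5′ to 3′, with the 4 DEAD codons in capitals.
DDX5-201: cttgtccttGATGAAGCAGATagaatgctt
DDX17-202: cttgtattgGACGAAGCTGACagaatgctt
These 30-base windows share 24 bases, 9 of them among the 12 in capitals. Over whole transcripts, none of the 7947 different 31-base words of DDX5 occurred among the 10095 of DDX17. The paralogs thus have no run of that length in common, although short stretches match closely.

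The results turn on intron 11, which separates the 60-base exon 11 from exon 12 in both genes and is the intron kept whole by DDX5-215 and by DDX17-201, both annotated as retained-intron transcripts. It spans 64500774 to 64502009 on chromosome 17 in DDX5 (1236 bases, 42.3% GC) and 38488116 to 38492055 on chromosome 22 in DDX17 (3940 bases, 40.5% GC). Its ends are printed 5′ to 3′ from these same transcripts, with intron bases in capitals and exon bases in lower case.
DDX5 start of intron 11: gagggctagGTTAGTACAAAC
DDX17 start of intron 11: gtgggctagGTTTGTATAGAT
DDX5 end of intron 11: CACACTGCAACACCTTACAGatgtgg
DDX17 end of intron 11: ACTCATCATTGACGTGGAAGatgtgg
At the start of the intron the genes share 8 of the 9 exon bases and 8 of the 12 intron bases printed. At its end they share all 6 exon bases and 6 of the 20 intron bases.

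The DDX5 intron also holds 3 mature microRNAs in RefSeq (GRCh38.p14), from the MIR3064 and MIR5047 hairpins on the same strand as DDX5, whereas none lies in intron 11 of DDX17. They are printed because a transcript that keeps the DDX5 intron contains them, and their seeds (bases 2 to 8) are in capitals.
hsa-miR-3064-3p: uUGCCACAcugcaacaccuuaca
hsa-miR-3064-5p: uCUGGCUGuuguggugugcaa
hsa-miR-5047: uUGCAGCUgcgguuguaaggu
The 3 seeds differ. The microRNAs lie at 64500775 to 64500797, 64500817 to 64500837 and 64501230 to 64501250, so hsa-miR-3064-3p ends next to exon 12. The microRNAs themselves were not analysed here.

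**Figure D1:**
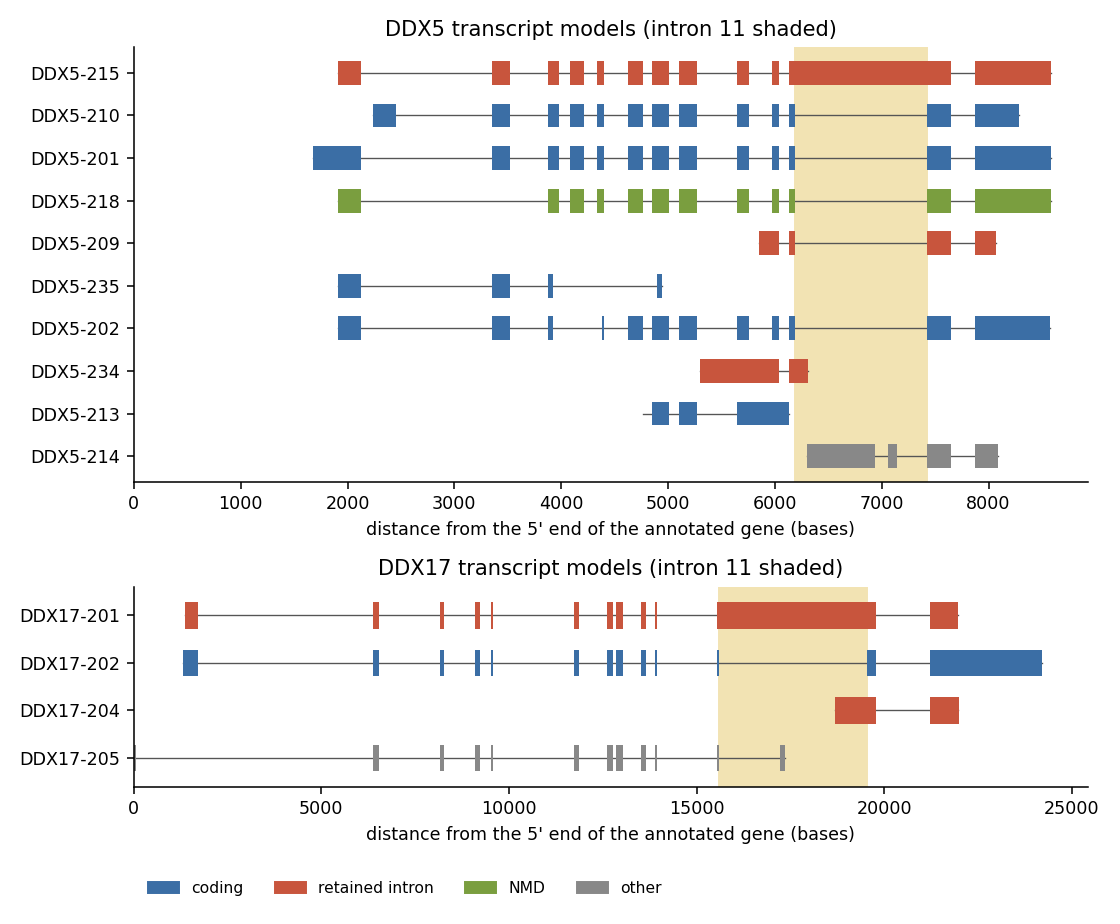
Models of the transcripts named with values, for DDX5 (top) and DDX17 (bottom), with exons as boxes, introns as lines, and the distance from the annotated 5′ end of the gene in bases on the horizontal axis. Colours give the annotated class, and the shaded band marks intron 11, which is whole in DDX5-215 and DDX17-201 and spliced out of the full-length coding models. DDX17-203 is not drawn because its version differs.

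DDX5 was among the most abundant messenger RNAs of the control cells and fell in the siDDX5 cells, while remaining above DDX17 in TPM there. Levels are given as TPM, an abundance scaled for transcript length and library total, and summed over the transcripts of a gene. DDX5 stood at 1661, 1686 and 1340 TPM in control replicates 1, 2 and 3 and at 795, 519.8 and 450.2 TPM in siDDX5 replicates 1, 2 and 3. All 3 siDDX5 libraries lay below all 3 control libraries, as for 9.15% of genes tested, with siDDX5 replicate 1 the highest of its group. The group means were 1563 ± 193 TPM (SD, n = 3) and 588 ± 182 TPM (SD, n = 3). In CPM (counts scaled to a common library size, not for length) the level was 2.71-fold lower, with a log2 change of -1.44 (SE 0.15). This gave an adjusted p of 0.0106 (quasi-likelihood test in edgeR, adjusted by Benjamini-Hochberg over all genes), and 0.00204 when replicate number entered the fit as a block. In the same test 25 of 15223 genes (0.164%) were called at an adjusted p under 0.05, 17 of them lower (0.112%), and 395 (2.59%) with the block. The DDX5 call was lost without control replicate 1, siDDX5 replicate 1 or siDDX5 replicate 2, with adjusted p from 0.0531 to 0.0953 in edgeR. In bulk RNA, a lower amount of DDX5 RNA in each cell and a smaller number of cells that express it cannot be told apart.

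Among protein-coding genes ordered by TPM, DDX5 ranked between 67 and 87 in the control libraries and between 142 and 246 in the siDDX5 libraries, of 16658 to 16895 genes above 0. Among 39 protein-coding genes with a DDX name it ranked 1 by TPM in all 6 libraries, the knockdown libraries included. In CPM, DDX5 stood at 549.5, 504.5 and 395.9 in the siDDX5 libraries. There DDX17 (620.4, 555 and 608 CPM) and DDX3X (753.2, 742 and 624.7 CPM) were higher in every library, whereas DDX5 was above both in every control library. The TPM rank includes the short models DDX5-235 and DDX5-209, with means of 374.6 and 237.2 TPM in control libraries. Ranks in CPM or without these models were not computed.

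DDX17 was the less abundant paralog and its summed level was not called different. It stood at 174, 198 and 199 TPM in the control libraries and at 253, 185 and 226 TPM in the siDDX5 libraries. The groups overlapped, because siDDX5 replicate 2 lay below control replicates 2 and 3. Means were 190.1 ± 14.3 TPM and 221 ± 34.2 TPM (SD, n = 3 each). In CPM the values were 461, 489 and 538 in control and 620.4, 555 and 608 in siDDX5 libraries, with all siDDX5 values higher, as for 8.87% of all genes tested. The log2 change was 0.26 (SE 0.11), with an adjusted p of 0.405 in edgeR's quasi-likelihood test and 0.177 with the block. In these CPM values, which favour the longer DDX17 transcripts, DDX17 was below DDX5 in every control library and above it in every siDDX5 library. By TPM DDX17 ranked between 4 and 6 among the 39 DDX genes in the 6 libraries.

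**Figure D2:**
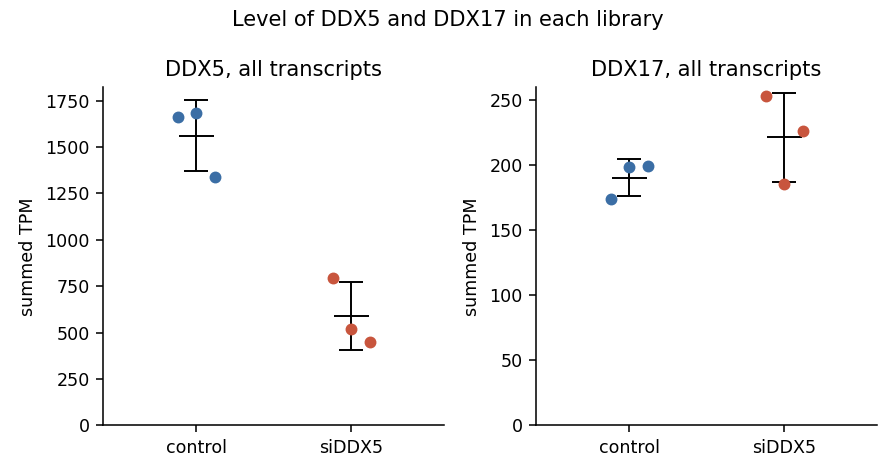
Summed TPM of all DDX5 transcripts (left) and all DDX17 transcripts (right) in each control and siDDX5 library, with both axes starting at 0 and different in scale. Points are libraries, the long bar is the mean and the short bars are 1 SD (n = 3). The DDX5 groups are apart, at 1340 TPM or more and at 795 TPM or less, and the DDX17 groups overlap.

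Set against each other, the paralogs were closer in TPM in every siDDX5 library than in any control library. Per library, the log2 ratio of DDX17 to DDX5 in TPM was -3.26, -3.09 and -2.75 in control and -1.65, -1.49 and -0.99 in siDDX5 replicates 1 to 3. In TPM, DDX5 was thus 8.19 times as abundant as DDX17 in control cells and 2.60 times in siDDX5 cells, from mean log2 ratios. Because DDX5 is the targeted gene, a rise of this ratio follows from the fall of DDX5. It is not a separate result on DDX17, whose summed level was not called different. The ratio differed by 1.65 on the log2 scale, with no overlap between groups, and how often other gene pairs separate was not computed. A two-sided exact permutation test gave p = 0.1, the smallest value that 3 libraries against 3 allow. An exact test that flips signs within same-numbered pairs gave p = 0.25, the smallest that 3 pairs allow. In estimated counts, not scaled for length, the difference was 1.71, and DDX5 was 2.63 times DDX17 in control and 0.806 times in siDDX5 cells. Counting coding transcripts alone in TPM, the difference was 2.64, and DDX5 was 8.87 times and 1.42 times as abundant as DDX17 in the 2 groups. These TPM ratios include short DDX5 models with no 31-base word of their own. DDX5-235 (473 bases, coding) had a mean of 374.6 TPM in control and 85.9 TPM in siDDX5 libraries. DDX5-209 (667 bases, retained intron) had 237.2 and 114.8 TPM and enters only the ratio of all transcripts. Ratios without these models were not computed.

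Transcripts were then summed by their annotated class. Of the 35 DDX5 transcripts 16 are coding, 11 keep an intron, 3 are NMD transcripts and 5 are of other kinds. Of the 12 DDX17 transcripts these classes hold 4, 4, 1 and 3. Counts of 0 in every library were found for 4 DDX5 transcripts, 1 of each class, and for 2 DDX17 transcripts, both coding. A class name says how the model is annotated and not what each RNA molecule does.

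In DDX5, coding and retained-intron transcripts were both lower in every siDDX5 library than in any control library, as for 9.2% of all class sums. Coding transcripts summed to 939, 849 and 721 TPM in the control libraries and to 364, 203 and 149.5 TPM in the siDDX5 libraries. Retained-intron transcripts summed to 650.2, 758 and 569 TPM and to 380.2, 279 and 263 TPM. The retained-intron sum fell, with a log2 change of -1.29 (SE 0.14) and an adjusted p of 0.0354 in edgeR over 27829 sums of a gene and a class, of which 6 (0.0216%) were called. That call was lost with the block (adjusted p 0.0662 in edgeR, where 0.00719% of sums were called) and when any 1 of the 6 libraries was left out (adjusted p 0.0731 to 0.175). For the coding sum the log2 change was -1.73 (SE 0.21), with an adjusted p of 0.0671 in edgeR and 0.0359 with the block. Across all genes the median log2 change was 0.04 for coding sums and -0.12 for retained-intron sums.

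NMD transcripts of DDX5 summed to 43.2 ± 14.9 TPM in control and 32.5 ± 5.61 TPM in siDDX5 cells (SD, n = 3 each). Their log2 change was -0.36 (SE 0.25), with an adjusted p of 0.71 in edgeR. It moved to -0.14 without control replicate 1 and to -0.62 without control replicate 3, with adjusted p of 0.931 and 0.368 in edgeR. As a share of DDX5 counts they made up 3.56% ± 0.98 in control and 7.63% ± 1.04 in siDDX5 libraries (SD, n = 3 each). The highest control library, at 4.4%, lay below the lowest siDDX5 library, at 6.73%. This share is of a total that itself fell, and how often class shares of other genes separate in this way was not computed. The test of how a gene is divided among its classes (Simes test of edgeR's diffSpliceDGE) gave DDX5 an adjusted p of 0.109, where 0.312% of 8326 genes were called, and 0.0222 with the block, where 0.372% were. Within that test the NMD class had an adjusted p of 0.078 in edgeR, and 0.017 with the block. The other DDX5 transcripts summed to 24.5 ± 6.11 and 9.68 ± 2.34 TPM (SD, n = 3 each), with a log2 change of -1.73 and an adjusted p of 0.0758 in edgeR.

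For DDX17, the summed coding transcripts were at a higher and the retained-intron transcripts at a lower level in every siDDX5 library than in any control library, but neither sum and no class share passed its test. Coding transcripts summed to 91.7, 88.3 and 101.6 TPM in the control libraries and to 168, 140.9 and 162.5 TPM in the siDDX5 libraries. All 3 siDDX5 values were above all 3 control values, as for 5.13% of all class sums. Retained-intron transcripts summed to 64.5, 82.4 and 86.1 TPM in control and to 56, 34.9 and 48.3 TPM in siDDX5 libraries. Here all siDDX5 values were below the control values, as for 9.2% of all class sums.

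In CPM the DDX17 coding sum had a log2 change of 0.80 (SE 0.10), or 1.74-fold, and an adjusted p of 0.0707 in edgeR (0.0931 with the block). The retained-intron sum had a log2 change of -0.94 (SE 0.15), or 1.92-fold lower, and an adjusted p of 0.107 in edgeR (0.104 with the block). Neither sum passed the threshold on its own. Coding transcripts held 56.3% ± 2.97 of DDX17 counts in control and 80.5% ± 2.72 in siDDX5 libraries, and retained-intron transcripts held 41.3% ± 3.07 and 17.6% ± 1.76 (SD, n = 3 each). The class test for DDX17 gave an adjusted p of 0.0597 in edgeR's Simes test, and 0.144 with the block. The single DDX17 NMD transcript had about 1 to 3 counts in each library and was too low to test.

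The gap between both classes can be read across genes. In DDX17 the log2 change of the retained-intron sum lay below that of the coding sum, by a difference of -1.74, while in DDX5 it lay above it, by 0.44. Over 5366 genes with both sums tested the median difference was -0.16, and 17 genes (0.317%), DDX17 among them, had a difference as low as that of DDX17 or lower. For DDX5, 92.7% of genes had a difference as low or lower. Retained-intron transcripts of all other genes took 4.68% to 5.79% of counts in the control and 4.5% to 4.89% in the siDDX5 libraries, ranges that overlap, and their part in the DDX17 values was not tested.

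**Figure D3:**
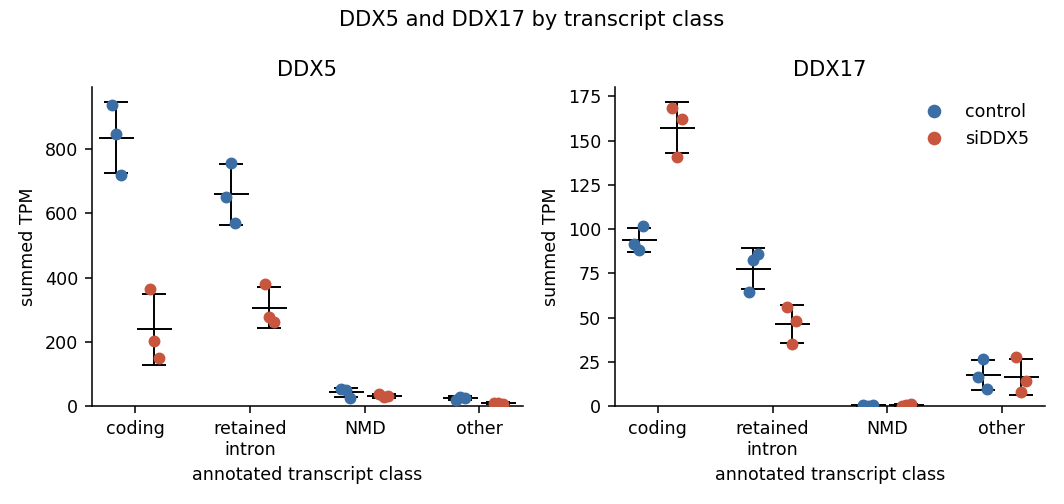
Summed TPM of the annotated transcript classes of DDX5 (left) and DDX17 (right) in each library, control and siDDX5, with different vertical scales. Points are libraries, long bars are means and short bars 1 SD (n = 3). In DDX5 both large classes are lower in siDDX5 libraries, whereas in DDX17 the coding class is higher and the retained-intron class lower, each without overlap.

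Single transcripts show which models carried these sums. Of the 47 transcripts, 31 had enough counts to be tested, 23 of DDX5 and 8 of DDX17. The 14 with a mean of at least 5 CPM, 9 of DDX5 and 5 of DDX17, held 95.1% to 97.6% of DDX5 counts and 98.4% to 99.3% of DDX17 counts. In edgeR's quasi-likelihood test none of 61167 transcripts was called (0%), so no change of a single transcript is stated as such. At an unadjusted p under 0.05 there were 7 DDX5 and 3 DDX17 transcripts, against 7.09% of all transcripts. The DESeq2 Wald test called 9 member transcripts, against 795 of the 27904 to which it gave an adjusted p (2.85%). These were 6 DDX5 transcripts that were lower and, of DDX17, 2 that were higher and 1 that was lower.

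DDX17-201 (ENST00000216019.11), the model that keeps the whole of intron 11, stood at 38.9, 46.1 and 55.4 TPM in control and at 27.4, 16.6 and 23.1 TPM in siDDX5 libraries. Every siDDX5 library was lower than every control library, as for 9.01% of all transcripts tested. It was 2.00-fold lower by the fit (SE of the log2 change 0.17, adjusted p 0.281 in edgeR). DDX17-204, a short retained-intron model that begins inside intron 11, stood at 16.3, 18.1 and 15.8 TPM and at 8.4, 10.9 and 13.3 TPM, a log2 change of -0.53 (SE 0.23, adjusted p 0.715 in edgeR). These were the 2 tested DDX17 transcripts whose groups lay apart with siDDX5 lower.

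On the coding side, DDX17-203 (ENST00000403230.2) stood at 72.2, 68.2 and 73.4 TPM in control and at 129.6, 113 and 118 TPM in siDDX5 libraries. It was the most abundant DDX17 transcript, its groups did not overlap, as for 5.34% of transcripts in that direction, and its log2 change was 0.83 (SE 0.09, adjusted p 0.173 in edgeR). The tables list this model with 4761 bases, against 2322 in the version held by the annotation used here, so its position at intron 11 was taken from the shorter version. DDX17-202 stood at 19.5, 20.1 and 28.2 TPM and at 38.6, 27.9 and 44.4 TPM. Its siDDX5 replicate 2 lay just below control replicate 3, and its log2 change was 0.78 (SE 0.19, adjusted p 0.522 in edgeR). DDX17-205, a processed transcript whose last exon lies inside intron 11, varied within both groups, from 6.38 to 20.8 TPM in control and from 5.11 to 23.3 TPM in siDDX5 libraries, with a log2 change of 0.00 (SE 0.58).

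How DDX17 was divided among its single transcripts changed. Over its 8 tested transcripts, edgeR's Simes test of transcript usage gave an adjusted p of 0.00109, rank 68 of 10704 genes, of which 170 (1.59%) were called. With the block the adjusted p was 0.0134, where 1.21% of genes were called. Within that test DDX17-201 had an adjusted p of 0.000686 in edgeR, and 0.00878 with the block. DDX5, with 23 tested transcripts, had an adjusted p of 0.895 in the same test, and 0.694 with the block, although its level fell. Whether usage changed more in DDX17 than in DDX5 was not tested across transcripts. Intron 11, at the same place in both genes, allows a comparison, though between unlike sets of models.

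For that comparison, the TPM of the transcript that keeps intron 11 was taken as a percentage of it and of all transcripts that splice the intron out. This measure was chosen after the transcript values had been seen. It uses 1 keeping and 6 spliced DDX5 transcripts and 1 keeping and 4 spliced DDX17 transcripts. The spliced DDX17 models are all coding, and 2 of them had counts of 0 in every library. The spliced DDX5 models include NMD models and DDX5-209, a short retained-intron model with no 31-base word of its own. In control libraries DDX5-209 had a mean of 237.2 TPM, against 669.3 TPM for all spliced DDX5 models. The kept share without DDX5-209 was not computed. Models with part of the intron (5 of DDX5, 3 of DDX17) and those that do not reach it (23 and 4) were left out. In DDX17 the intron was kept in 29.8%, 34.3% and 35.3% of this TPM in control and in 14%, 10.6% and 12.4% in siDDX5 replicates 1 to 3. Each siDDX5 value was less than the lowest control value, and the means were 33.1% ± 2.92 and 12.3% ± 1.73 (SD, n = 3 each). How often kept shares of other genes separate in this way was not computed.

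In DDX5 the intron was kept in 27%, 35.1% and 37.1% of the TPM in control and in 29.8%, 32.3% and 34.2% in siDDX5 libraries. The siDDX5 values all lay within the control range, with means of 33.1% ± 5.36 and 32.1% ± 2.2 (SD, n = 3 each). The difference between groups was -20.8 percentage points in DDX17 (two-sided exact permutation p = 0.1, the smallest possible) and -0.97 in DDX5 (exact p = 0.7). Taking DDX5 from DDX17 within each library gave 2.81, -0.84 and -1.81 points in control and -15.8, -21.7 and -21.7 in siDDX5 libraries. This contrast between the genes differed by -19.8 points, without overlap (two-sided exact permutation p = 0.1), and its background over other gene pairs was not computed. With signs flipped within same-numbered pairs, the exact p was 0.25 for DDX17 and for this contrast, the smallest that 3 pairs allow. For DDX5 this sign-flip p was 0.5. With counts in place of TPM, which weight the longer transcript more, the kept share of DDX17 was 39.7% ± 3.15 and 15.8% ± 2.13, and that of DDX5 52.4% ± 6.43 and 54.3% ± 1.85 (SD, n = 3 each). The DDX17 share in counts was thus below the DDX5 share in the control libraries too, by -8.86, -14.6 and -14.5 points, against -35.9, -39.2 and -40.4 in siDDX5 libraries, so the equal control means hold in TPM only.

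How well the model that keeps intron 11 can be told apart differs between the genes. Of the 3910 different 31-base words in intron 11 of DDX17, 2795 occur in no transcript other than DDX17-201. In DDX5, 317 of 1206 are found in DDX5-215 alone, and 106 are shared with the annotated MIR3064 and MIR5047 genes. On the spliced side, DDX17-203 had no word of its own either. It had means of 71.2 TPM in control and 120.2 TPM in siDDX5 libraries, against 93.8 and 157.2 TPM for all spliced DDX17 models. Words were counted on its 2322-base version, not on the 4761-base version that was quantified. The SD between libraries leaves out any error made in assigning reads to models, which the tables do not estimate.

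**Figure D4:**
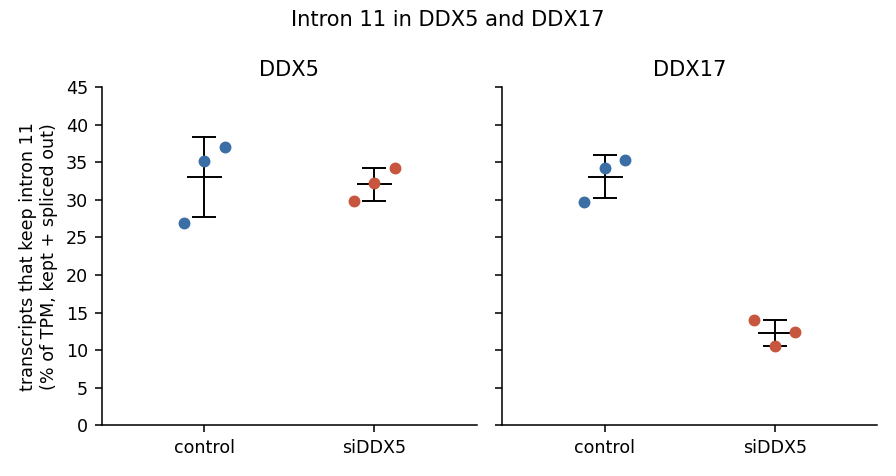
Percentage of TPM on the transcript that keeps intron 11, of the TPM on transcripts that keep it or splice it out, in DDX5 (left) and DDX17 (right). Points are libraries, long bars means and short bars 1 SD (n = 3). The DDX5 groups overlap, and in DDX17 the siDDX5 libraries (10.6% to 14%) lie below the control libraries (29.8% to 35.3%).

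Among DDX5 transcripts, the model with intron 11 was the most abundant by count in both groups. DDX5-215 (ENST00000581230.5) stood at 288, 378 and 313 TPM in control and at 142, 114 and 103.9 TPM in siDDX5 libraries, a log2 change of -1.36 (SE 0.14, adjusted p 0.171 in edgeR). DDX5-209, a short retained-intron model at the 3′ end, stood at 276, 258 and 178 TPM and at 164, 91.2 and 89 TPM, a log2 change of -0.98 (SE 0.26, adjusted p 0.553 in edgeR). The groups were apart for both of them. DDX5-234, which keeps part of intron 11, differed least of the abundant retained-intron models, with 31, 41.3 and 25.5 TPM in control and 25.3, 21.1 and 24.8 TPM in siDDX5 libraries (log2 change -0.38, SE 0.22). Its lowest control and highest siDDX5 values were nearly equal.

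The full-length coding models had larger fold differences than these. DDX5-201 (ENST00000225792.9) stood at 219.9, 142.5 and 125 TPM in control and at 42.7, 47.8 and 44.3 TPM in siDDX5 libraries, a log2 change of -1.78 (SE 0.25, adjusted p 0.245 in edgeR). DDX5-210 (ENST00000578804.5), which uses another first exon, stood at 217, 234 and 184 TPM and at 80.3, 57.8 and 35.7 TPM, a log2 change of -1.80 (SE 0.28, adjusted p 0.262 in edgeR). Neither model had a siDDX5 library near its control range. DDX5-235, a 473-base coding fragment with no 31-base word of its own, was listed at 420.2, 373 and 330.3 TPM and at 179, 41.9 and 36.7 TPM. It held 44% to 45.8% of the coding TPM of DDX5 in control libraries, and 49.2%, 20.6% and 24.6% in siDDX5 replicates 1, 2 and 3. The siDDX5 library with the highest coding sum, replicate 1, was thus also the one with most of this fragment.

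The remaining abundant DDX5 models overlapped between groups or were variable. DDX5-218 (ENST00000581693.5), the NMD model, which lacks exon 2 of DDX5-201, stood at 54, 47.4 and 26.2 TPM in control and at 38.6, 27.7 and 31.1 TPM in siDDX5 libraries (log2 change -0.32, SE 0.27). DDX5-213 stood at 32.4, 37.6 and 27.3 TPM and at 28.6, 12.8 and 9.5 TPM (log2 change -0.87, SE 0.39). DDX5-202 was the most variable, at 12, 14 and 17.9 TPM in control and at 8.04, 15.1 and 0 TPM in siDDX5 libraries (log2 change -0.78, SE 1.23).

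Over all 23 tested DDX5 transcripts, 22 had a negative and 1 a positive log2 change, with a median of -0.61, and 12 lay lower in all siDDX5 than in all control libraries, as did 9.01% of all transcripts tested. The 14 tested models under 5 CPM had log2 changes from -2.84 to 0.09 with a median of -0.45. The lowest of these was DDX5-214, a processed transcript that begins inside intron 11, named here after its value was seen. It stood at 10.6, 14.5 and 17.6 TPM in control and at 1.99, 1.4 and 2.35 TPM in siDDX5 libraries, with an adjusted p of 0.173 in edgeR. The 8 tested DDX17 transcripts were split, with 4 positive and 4 negative log2 changes.

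**Figure D5:**
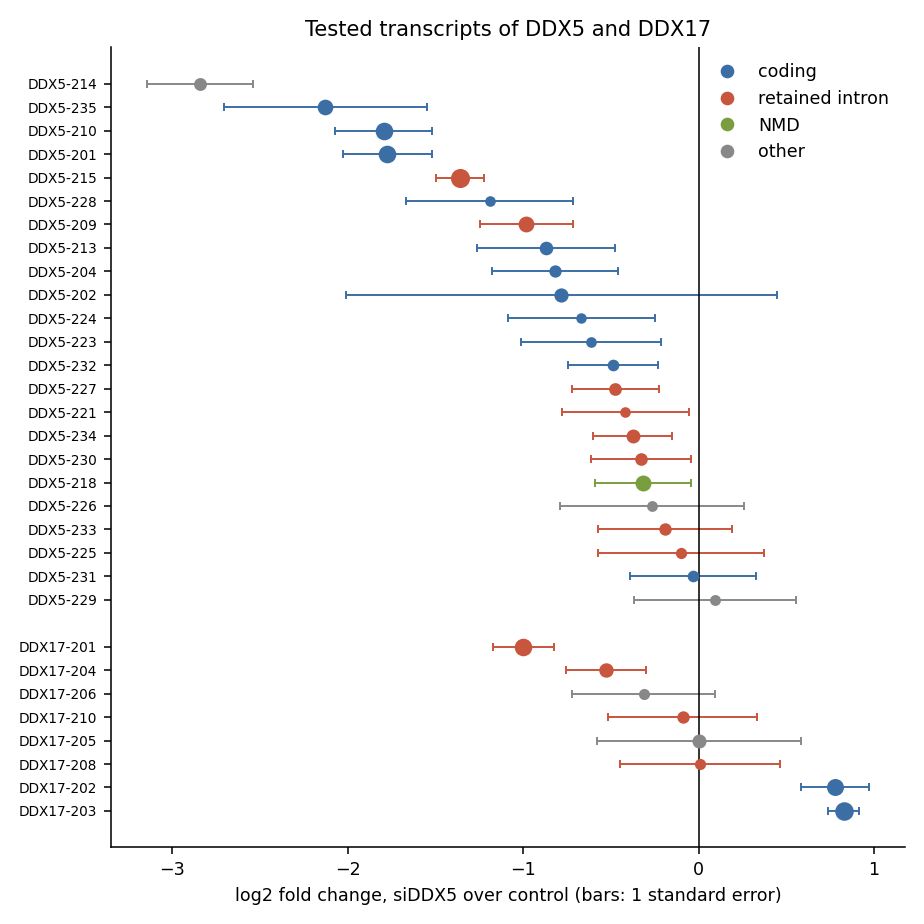
Log2 fold change (siDDX5 over control, from the edgeR fit of single transcripts) of the 23 DDX5 and 8 DDX17 transcripts tested, with bars of 1 standard error. Colours give the annotated class and larger points a higher mean CPM. DDX5 transcripts lie on the negative side with 1 exception, and among DDX17 models the coding DDX17-202 and DDX17-203 lie on the positive side and the retained-intron DDX17-201 and DDX17-204 on the negative side.

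The genes whose profile over the 6 libraries was most like that of DDX5 were GNAI2, a G protein subunit, SEMA6B, a semaphorin, SKI, a repressor of TGF-beta signalling, CTDSP2, a phosphatase, and ROBO1, a guidance receptor. Likeness was the root mean square difference of mean-centred log2 CPM among 8082 genes whose mean reached 20 CPM. It was 0.199 for GNAI2, 0.235 for SEMA6B, 0.255 for SKI, 0.256 for CTDSP2 and 0.258 for ROBO1, against 0.742 for the spread of DDX5 about its own mean. For DDX17 the nearest were CCDC138 (0.0332), UPF3B (0.0349), CTDSPL2 (0.0373), LIN7C (0.0373) and PRKAB2 (0.0443), against a spread of 0.155. UPF3B is a factor of the NMD pathway. These are descriptions over the same libraries, with no test.

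Known partners of the helicases were not called in the siDDX5 cells. All 11 proteins of the large Drosha complex on the list were tested and none was called, with 1 at an unadjusted p under 0.05 (11.4% of all genes tested) and a median log2 change of -0.06 (range -0.35 to 0.08). DROSHA, the nuclease, had a log2 change of -0.22 (adjusted p 0.497 in edgeR). Among 14 partners in RNA processing none was called and none had an unadjusted p under 0.05, with a median of 0.06 (range -0.18 to 0.25). Of 21 partners in transcription none was called, 5 had an unadjusted p under 0.05, and the median was -0.07 (range -0.50 to 0.23). With the block, where 2.59% of all genes were called, 1 of these was called, CTCF, an insulator protein that binds DDX5. CTCF stood at 84.3, 84.3 and 83.2 CPM in control and at 59.7, 59.9 and 57.8 CPM in siDDX5 libraries, with a log2 change of -0.50 (SE 0.09) and an adjusted p in edgeR of 0.0732, or 0.0144 with the block. MYOD1, the muscle transcription factor that both helicases bind, had a log2 change of -0.07 (adjusted p 0.922 in edgeR). The median over all genes tested was 0.00, and the named values of DROSHA and MYOD1 were picked for their roles.

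Listed genes near the paralogs were not called either. Of the 4 listed near DDX5, all were tested and had log2 changes from -0.10 to 0.05. They include CEP95, which overlaps the 5′ end of DDX5 on the opposite strand and had a log2 change of -0.09 (SE 0.11). Of the 4 listed near DDX17, 2 were tested. KDELR3, which overlaps the 3′ end of DDX17 on the opposite strand, was at -0.44 (adjusted p 0.465 in edgeR). CBY1 was at -0.09, and DMC1, which was not tested, lies between it and DDX17.

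Estimated counts per library ran from 21265569 to 26156858 in the control and from 18202402 to 19971888 in the siDDX5 group, so every siDDX5 library was shallower. A count of 3 equalled 0.115 to 0.165 CPM. Of 8 markers of muscle and rhabdomyosarcoma, 7 were at or above 1 TPM in every library, with MYOD1 from 109.5 to 163 TPM and MYOG from 66.2 to 171 TPM, and TFAP2B was listed at 0 in all 6. Of 6 markers of other cells, PECAM1 was above 1 TPM in every library (3.97 to 6.88 TPM), EPCAM and LUM were under 1 TPM everywhere, and PTPRC (0.714 to 3.43 TPM), DCN (0.771 to 3.06 TPM) and CDH1 (0.477 to 1.21 TPM) lay between.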

How the data were processed

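Messenger RNA of 3 control and 3 siDDX5 libraries was quantified by the authors, who deposited 1 table per library with estimated counts and TPM values of single transcripts. Per the submitters' processing notes, bcl2fastq 2.20, FastQC 0.11.8, cutadapt 1.11 and kallisto 0.46.0 were used with GRCh38; the layout is that of kallisto, per the file headers. The transcript annotation and whether strand was used in counting are not given in the sources used here. The deposited estimated counts are not normalized, and a read that matches several transcripts is split between them. The deposited TPM values are scaled for effective length and library total.

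Transcripts were joined to GENCODE 29 genes by identifier (169797 of 188753, all members included), by symbol (15291) or by position between transcripts of 1 gene (890), and 2775 were left out. Estimated counts were summed per gene, and per gene and class, rounded, passed through filterByExpr and scaled by TMM. All features were tested in edgeR 4.0.16 under R 4.3.3 (glmQLFit, then glmQLFTest), group being the only term, with Benjamini-Hochberg adjustment and a threshold of 0.05. An SE is the log2 change divided by the square root of F. Transcript and class usage were tested with diffSpliceDGE. The steps were tested on simulated counts, which held no effect of replicate number and no error in dividing reads among transcripts. Alternatives used DESeq2 1.42.0, limma 3.58.1 on log2(TPM + 1) and log2(TPM + 0.1), other filters and scalings, the replicate block, and each library left out.

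The titles give the groups shared replicate numbers without stating a shared batch. Deviations from the group means correlated at 0.233, 0.316 and 0.657 within same-numbered pairs over 15223 genes and at -0.413 to 0.108 across numbers. Within a group such deviations cancel out for each gene. With positive values within pairs, some values across numbers must therefore be negative. Blocked values are given beside the main gene, class and usage tests, since a shared batch was neither stated nor tested. Those of single transcripts, some class sums and most listed genes are left out. With the block none of 61167 transcripts was called (0%). Members and gene lists were chosen with earlier results of these data known. Named were member transcripts with a mean of at least 5 CPM, the 5 genes most like each paralog, and up to 3 called members of each list. Library totals limit precision to counting error and the spread of 3 libraries. RefSeq microRNA sequences were matched by symbol, and protein sequences are not used here.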

Additional observations from a re-analysis of the deposited data

How the results depend on the processing

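The log2 change of DDX5 stayed negative in all alternatives run, but its call was lost in limma, at -1.44 with log2(TPM + 1) (adjusted p 0.085) and -1.45 with log2(TPM + 0.1) (adjusted p 0.0928), and with 1 library left out it ran from -1.54 to -1.30. Against 25 genes called, there were 395 with the replicate block, 136 with no filter, 323 with the DESeq2 Wald test, 1 in each limma fit and 0 to 15 with 1 library left out. The 2 counts of 0 from edgeR came without control replicate 1 (1244 genes at an unadjusted p under 0.05) and without siDDX5 replicate 1 (2042 genes). The DDX5 coding sum was called at -1.75 with the replicate block, -1.74 with no filter, -1.74 with a mean of at least 50 counts and -1.72 in DESeq2. The DDX5 retained-intron sum lost its call with the block (-1.29) and in limma (-1.11 in both fits), and with each library left out (-1.38 to -1.18). The DDX17 coding sum was called at 0.80 with no filter, 0.79 with a mean of at least 50 counts and 0.81 in DESeq2, and the DDX17 retained-intron sum at -0.94 with no filter and -0.93 in DESeq2. DESeq2 called 9 member transcripts, against 0 in edgeR. Class usage passed the threshold in DDX5 with the replicate block (adjusted p 0.0222 in edgeR), and in DDX17 with no filter (0.0235) and in 1 of 6 fits with a library left out (0.0414 to 0.394, passing without siDDX5 replicate 1). Kept intron 11 in DDX5 turned sign, to 1.93 points with counts and over a range of -4.01 to 1.04 with 1 library left out. The cause of these shifts was not tested. DDX17 transcript usage kept its call in all 10 alternatives (adjusted p 0.00105 to 0.029), and the block changed 2 further calls among the values printed, those of CTCF (adjusted p 0.0732 to 0.0144 in edgeR) and of the NMD class in DDX5 class usage (0.078 to 0.017). Of 126 alternative values that have a sign, 122 kept it, the exceptions being kept intron 11 in DDX5. The DDX17 NMD sum had too few counts for the reported fit, and depth limits single transcripts under 5 CPM most.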
